A study of Mus musculus with 2 samples.

Results

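The genes described here are 9 members of the Hippo pathway and of its transcriptional output, YAP (Yes-associated protein) signaling, out of 20317 genes with a symbol in the mRNA table of this hepatocyte RNA-seq series. They were chosen by name as 5 target genes (Ccn1, Ccn2, Ankrd1, Amotl2 and Axl) and 4 pathway members (Yap1, Wwtr1, Tead1 and Lats2), and all 9 were found through their RefSeq transcripts, 16 in number. The series holds 2 libraries of primary hepatocytes from livers of wild-type C57BL/6J mice, with 1 library in each group. The control mice received oil by intraperitoneal injection. The model mice received CCl4, a solvent that injures hepatocytes when they metabolize it, as a 20% solution in mineral oil, 2.5 ml CCl4 per kg body weight, 2 injections per week over 8 weeks by the deposited labels, whereas the methods give a shorter course and male animals. How many mice each library was made from is not given in the sources used here, and the cells were purified by perfusion and density centrifugation rather than by a sort. The paper checked purity of isolated cells by qRT-PCR of hepatocyte, stellate cell and Kupffer cell markers, without stating whether these 2 libraries were covered. With 1 library per group, no difference here has a replicate check and no test of the treatment was possible.

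Hippo signaling is a kinase cascade that limits organ size, and the liver is the organ in which its loss is best known to cause overgrowth. The kinases of the cascade phosphorylate the coactivators YAP and TAZ, the latter encoded by Wwtr1, and so keep them in the cytoplasm. Unphosphorylated YAP and TAZ enter the nucleus, bind DNA through transcription factors of the TEAD family and switch on genes such as Ccn1 and Ccn2. Because this control acts on the proteins, the mRNA levels reported here do not measure the activity of YAP or TAZ.

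Levels are given as RPKM, the reads of a transcript divided by its length and by the depth of the library, which is a level per length and can be compared between genes. In these tables a value under 1 RPKM was listed as 0. The steps between RPKM values correspond to about 57990000 reads with oil and 64660000 reads with CCl4, so that 1 RPKM corresponds to 58.0 reads per kilobase of transcript in the oil library and to 64.7 with CCl4. A gene listed at 0 may therefore still have had reads. Of the 9 genes, 7 were at or above 1 RPKM with oil and 8 with CCl4. Differences are given as the ratio of the CCl4 over the oil RPKM, and as log2 of it with 0.1 RPKM added to each value. Counts at 2-fold use the latter, at 1 or more in size, so a low gene with a ratio just over 2 can be left out. Intervals are 95% exact intervals for the reads of 1 kilobase of transcript, cover counting error only and say nothing of variation between preparations.

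Promoter sequence is shown first, because TEAD proteins are known to bind the bases GGAATG, read as CATTCC on the other strand. The RefSeq (GRCm38.p6) promoter windows used ran from 250 bases before to 50 bases after the start of transcription. They covered 7 of the 9 genes, and not Ccn2 and Tead1. All 7 had a window with at least 1 match on either strand, against 16.6% of the 27025 genes with a window. In Ccn1 and Ankrd1 the window began at the outer end of the gene as annotated, and their sequences follow without the 50 transcribed bases, 5′ to 3′ on the minus strand of the genome, the strand of both genes, with the matches in capitals.
Ccn1, chr3:145649986-145650235: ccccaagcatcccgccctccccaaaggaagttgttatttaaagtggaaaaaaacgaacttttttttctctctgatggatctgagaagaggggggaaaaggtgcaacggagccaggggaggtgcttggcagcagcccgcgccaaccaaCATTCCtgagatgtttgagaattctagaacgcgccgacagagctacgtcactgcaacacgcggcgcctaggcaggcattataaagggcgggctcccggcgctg
Ankrd1, chr19:36119845-36120094: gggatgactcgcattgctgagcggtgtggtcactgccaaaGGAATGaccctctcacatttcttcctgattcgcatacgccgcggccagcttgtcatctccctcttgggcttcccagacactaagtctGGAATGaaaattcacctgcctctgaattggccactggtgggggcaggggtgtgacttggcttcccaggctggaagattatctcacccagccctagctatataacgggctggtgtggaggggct

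The match began 103 bases before the start in Ccn1, and Ankrd1 had matches at 210 and 123 bases. The windows of Amotl2, Axl, Yap1 and Lats2, and 1 of the 2 of Wwtr1, belong to annotated starts inside the span of the gene, so their bases before the start overlap the gene and are not printed. Counted from these starts, the match began 65 bases before in Amotl2 and 233 in Axl. Yap1 had a match 141 bases before such a start and Wwtr1 had 1 match, 136 or 170 bases before its 2 annotated starts. In Lats2 the match lay within the transcribed part, from base 5 of 1 of its 2 annotated starts, and the window of the other start had none. Matches were thus not particular to the targets. Among the 16 other published YAP and TAZ target genes described further on, 2 of the 10 with a window had a match, and among all 54 other pathway and family genes 10 of 39 had one. A match of 6 letters describes the window and does not show binding.

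The CCN genes encode secreted matricellular proteins, and both were higher in the CCl4 library. Ccn1, also known as Cyr61 (chr3:145646971-145649985, GRCm38.p6 as for all genes here), was at 2.46 RPKM with oil and at 7.83 RPKM with CCl4, a ratio of 3.19 with an interval from 2.63 to 3.85. Ccn2 (chr10:24595442-24598683), known as connective tissue growth factor and as a profibrotic factor, was at 7.04 RPKM with oil and 25.04 RPKM with CCl4. Its ratio of 3.55, with an interval from 3.19 to 3.98, was the largest of the 7 genes that could be compared. The log2 differences were 1.63 for Ccn1 and 1.82 for Ccn2, larger than those of 96.3% and 97.5% of the 10689 genes at 1 RPKM or more in both libraries. Ccn2 exceeded Ccn1 2.87-fold in the oil and 3.20-fold in the CCl4 library, so the order of these genes was the same in both. The summed level of 10 stellate cell and myofibroblast markers also differed, 78.5 against 906 RPKM, and the part of those cells in the CCN levels was not tested.

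Axl (chr7:25756500-25788924) encodes a receptor tyrosine kinase of the TAM family, known from macrophages and mesenchymal cells for the uptake of apoptotic cells. It had the highest level of the 9 genes in both libraries, 18.5 RPKM with oil and 45.9 RPKM with CCl4, a ratio of 2.49 with an interval from 2.32 to 2.67 and a log2 difference of 1.31. Its 3 RefSeq transcripts had nearly the same values, from 18.3 to 18.5 RPKM in the oil and from 45.8 to 45.9 RPKM in the CCl4 library, so they do not tell isoforms apart. The 6 macrophage markers with a value summed to 777 RPKM with oil and 1482 RPKM with CCl4, and their part in the Axl level was not tested. Amotl2 (chr9:102717091-102733418), an angiomotin family scaffold that binds YAP and is itself a YAP target, had a smaller difference, 9.44 RPKM with oil and 15.2 RPKM with CCl4. Its ratio was 1.61 with an interval from 1.45 to 1.79, under 2-fold. Ankrd1 (chr19:36111965-36119844), an ankyrin repeat protein best known from muscle and widely used as a YAP readout in cultured cells, was listed at 0 in both libraries and gives no comparison.

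**Figure D1:**
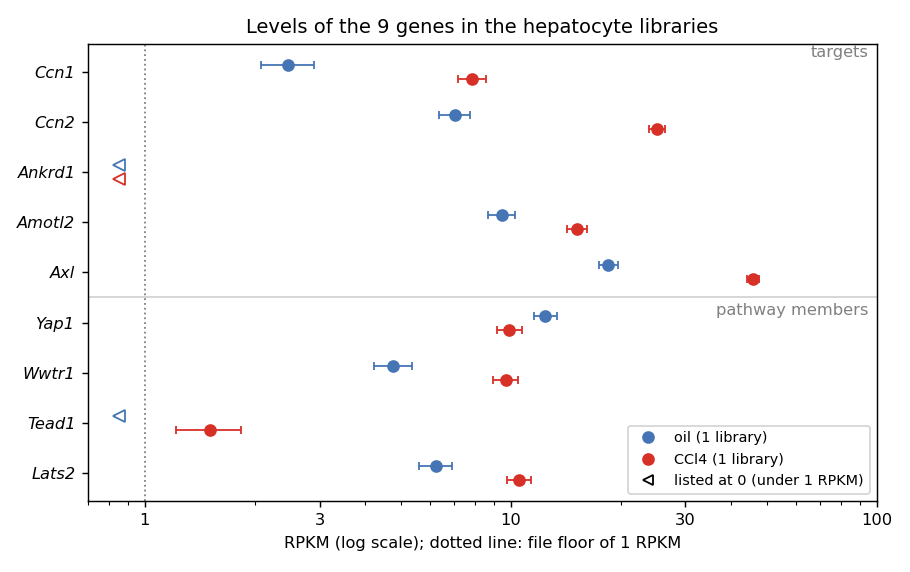
Level of each of the 9 genes in RPKM on a log axis, blue for the oil and red for the CCl4 library, with 95% counting intervals for 1 kilobase of transcript as bars and open triangles for genes listed at 0. The CCl4 point lies right of the oil point for 6 of the 7 genes measured in both libraries, from Ccn1 (2.46 and 7.83 RPKM) to Lats2, and left of it for Yap1 (12.4 and 9.90 RPKM).

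The pathway members did not share a direction. Yap1 (chr9:7931999-8004638) was at 12.4 RPKM with oil and at 9.90 RPKM with CCl4, 1.26-fold lower, with an interval of the CCl4 over oil ratio from 0.715 to 0.887. Its log2 difference was -0.33, and its 2 transcripts differed by less than their counting intervals (12.3 and 12.4 RPKM in oil, 9.83 and 9.90 RPKM in CCl4). Wwtr1 (chr3:57455644-57575910), the gene of TAZ, was at 4.77 RPKM with oil and at 9.68 RPKM with CCl4, a ratio of 2.03 with an interval from 1.76 to 2.34. The log2 difference of 1.01 sits at the 2-fold line, and it was 0.89 with 1 RPKM added in place of 0.1 and 0.997 for its other transcript, whose ratio was 2.02. Yap1 thus exceeded Wwtr1 2.61-fold in the oil library, whereas their levels were within counting error of each other in the CCl4 library, at a ratio of 1.02. The sum of the pair was 17.2 RPKM with oil and 19.6 RPKM with CCl4.

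Tead1 (chr7:112679356-112906784), a DNA-binding partner of YAP and TAZ, was the least abundant pathway member. It was listed at 0 with oil and at 1.503 RPKM with CCl4, and no fold is given against a listed 0. Its 3 transcripts were all listed at 0 in oil and lay from 1.48 to 1.503 RPKM in CCl4. Lats2 (chr14:57689662-57746212), one of the kinases that phosphorylate YAP and also a gene that YAP induces in a feedback loop, was at 6.25 RPKM with oil and at 10.6 RPKM with CCl4. This is a ratio of 1.69 with an interval from 1.49 to 1.92. Its second transcript had lower levels, 3.24 and 6.38 RPKM, and a ratio of 1.97.

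In order of level, the oil library had Axl, Yap1, Amotl2, Ccn2, Lats2, Wwtr1 and Ccn1, of which only Ccn2 and Lats2 were neighbors with overlapping counting intervals. The CCl4 library had Axl, Ccn2, Amotl2, Lats2, Yap1, Wwtr1, Ccn1 and Tead1, and there Lats2 and Yap1, and Yap1 and Wwtr1, had overlapping intervals. Yap1 went from place 2 to place 5 and Ccn2 from place 4 to place 2, while Axl was first in both libraries. The summed level of the targets was 37.4 RPKM with oil and 94.0 RPKM with CCl4, and that of the pathway members was 23.4 and 31.6 RPKM.

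**Figure D2:**
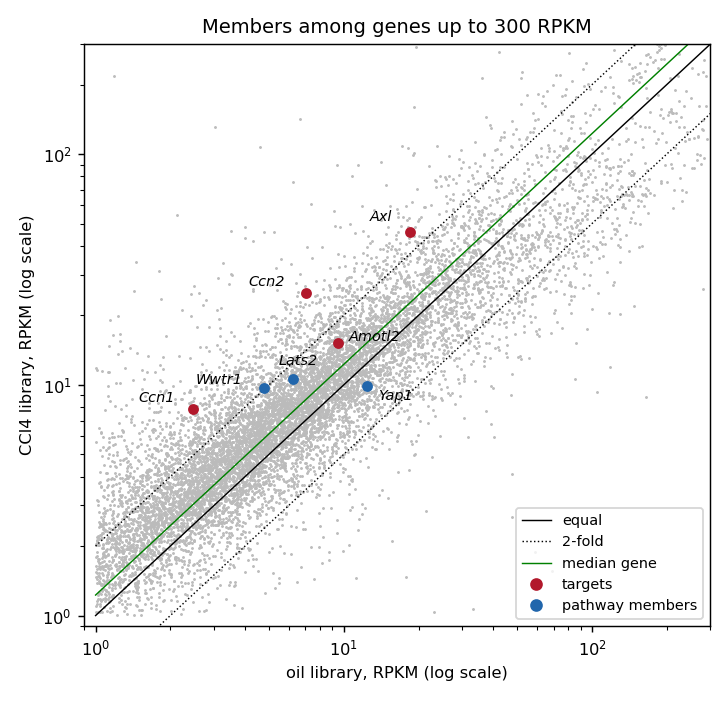
Each grey point is a gene at 1 RPKM or more in both libraries, with its oil RPKM on the horizontal and its CCl4 RPKM on the vertical log axis, cut at 300 RPKM. Ccn1, Ccn2 and Axl (targets, red) lie above the upper dotted line of a 2-fold difference, Wwtr1 (pathway, blue) lies on it at a ratio of 2.03, and Yap1 is the one member under the line of equal levels.

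Counted at a log2 difference of at least 1, 3 of the 4 measurable targets (Ccn1, Ccn2 and Axl) and 1 of the 3 measurable pathway members (Wwtr1) were higher in the CCl4 library, and 0 of the 7 were lower. Of all 10689 genes measured in both libraries, 14.3% were higher and 5.48% lower by this rule. The median log2 difference was 1.47 over the 4 targets and 0.75 over the 3 pathway members, against 0.30 over all measured genes. That general shift is part of every difference given here, and relative to it Ccn1 was higher by 1.34, Ccn2 by 1.52, Axl by 1.02, Wwtr1 by 0.71, Lats2 by 0.45 and Amotl2 by 0.38, while Yap1 stood at -0.62. Scaled to the median gene, Wwtr1 no longer reached 2-fold, and among all genes the share of such differences that were higher went from 72.3% to 45.8%. With the 10 most abundant transcripts left out of the library size, the other scaling tried, that share was 82.8% and the same 4 members were past 2-fold. The log2 difference of Yap1 was -0.16 under that scaling, against -0.33 in the main setting. No set of 4 and 3 genes in 1 library per group can be tested, so the medians are a description. The genes were also chosen with earlier results of these data known.

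The other published YAP and TAZ targets, a list of 16 genes defined mostly in human cancer cells, covered a wide range. Of 9 measured in both libraries, 4 were higher by at least 2-fold and 0 lower, beside 14.3% and 5.48% of all measured genes, with a median log2 difference of 0.89 against 0.30 over all genes. With 9 genes, from a list chosen with earlier results of these data known, this is a description of the list. Igfbp3, a secreted carrier of insulin-like growth factors, was at 3.52 RPKM in oil and 46.5 RPKM in CCl4, a ratio of 13.2. Ccdc80, an extracellular matrix protein, was at 17.1 RPKM and 108.0 RPKM, a ratio of 6.31. Myof, a membrane repair protein of the ferlin family, was at 1.93 and 9.53 RPKM, and Nt5e, the ectonucleotidase CD73, at 1.93 and 4.15 RPKM. Relative to the median gene Nt5e was under 2-fold, at 0.77, and Igfbp3, Ccdc80 and Myof were past it. The part of stellate cells and other liver cells in the levels of these 4 genes was not tested. Under 2-fold were Crim1 (8.21 and 12.4 RPKM), Gadd45a (5.34 and 9.03 RPKM), Nuak2 (5.75 and 8.31 RPKM), Asap1 (3.38 and 6.32 RPKM) and Dock5 (2.22 and 2.90 RPKM). A further 3 genes had a value in the CCl4 library alone, Arhgef17 at 4.83 RPKM, Rbms3 at 2.93 RPKM and Ptpn14 at 2.19 RPKM, and F3, Fjx1, Foxf2 and Tgfb2 were listed at 0 in both.

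The core of the kinase cascade was measured completely. Mob1a, a coactivator of the Lats kinases, was the most abundant, at 14.6 RPKM in oil and 22.7 RPKM in CCl4. The upstream kinases Stk4 (5.17 and 9.23 RPKM) and Stk3 (2.68 and 4.30 RPKM) and their scaffold Sav1 (4.89 and 9.10 RPKM) also had larger values in the CCl4 library. Lats1 (3.96 and 4.14 RPKM) and Mob1b (2.63 and 2.67 RPKM) had ratios of 1.05 and 1.02, and both were below 0 on the log2 scale once the libraries were scaled to the median gene. Of these 6 genes 0 reached 2-fold in either direction, where 14.3% of all measured genes were higher and 5.48% lower, and their median log2 difference was 0.65. Lats2 exceeded Lats1 1.58-fold in the oil and 2.55-fold in the CCl4 library.

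Among 19 upstream regulators, 4 were higher by at least 2-fold and 0 lower, with a median log2 difference of 0.61. Of all measured genes 14.3% were higher and 5.48% lower, so a count of 4 in 19 is near the general share and is no result about the regulators. The 4 were the kinase Map4k4 (5.65 and 17.4 RPKM, a ratio of 3.07), the angiomotin Amotl1 (5.62 and 12.8 RPKM, 2.28), and the large cadherins Dchs1 (2.92 and 6.45 RPKM, 2.21) and Fat4 (1.54 and 3.34 RPKM, 2.17), which bind each other across cell contacts. Relative to the median gene Map4k4 was at 1.31, and the others were under 2-fold, Amotl1 at 0.88, Dchs1 at 0.82 and Fat4 at 0.78. Fat1, another large cadherin of this list, was at 4.65 and 4.18 RPKM. Its log2 difference was -0.15, and -0.45 relative to the median gene. Wwc1, the scaffold KIBRA that activates the Lats kinases, had the most negative value, 6.40 RPKM in oil and 3.34 RPKM in CCl4, while its paralog Wwc2 had 3.18 and 6.43 RPKM, a ratio of 2.02 that the 0.1 RPKM added brought to 0.99 on the log2 scale, so that it is not among the 4. Relative to the median gene the log2 difference of Wwc1 was -1.21, and it was the only listed gene past 2-fold in that direction. Nf2, the tumor suppressor merlin, was at 6.60 and 9.10 RPKM. Of the others among the most abundant, Rassf1 (6.65 and 10.2 RPKM), Taok1 (5.93 and 8.21 RPKM), Taok3 (4.58 and 6.81 RPKM) and Scrib (4.96 and 6.91 RPKM) were under 2-fold, and Dlg1 (5.99 and 6.15 RPKM) had a log2 difference of 0.04 that was -0.26 relative to the median gene. Taok2 (10.8 and 17.1 RPKM) and Limd1 (10.8 and 14.1 RPKM) were the most abundant in oil.

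**Figure D3:**
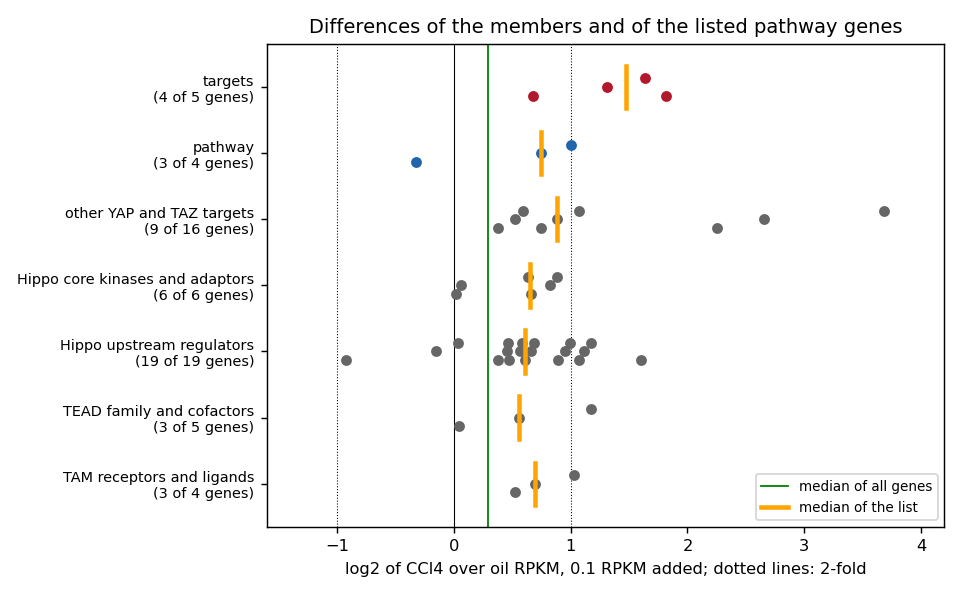
Log2 difference (CCl4 against oil, RPKM with 0.1 added) of each gene measured in both libraries, 1 row a list, with the median of the list in orange and the median of all genes (0.30) in green. The target row has the highest median, 1.47, and the single pathway member left of 0 is Yap1.

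The remaining TEAD genes were also low. Tead2 was at 1.32 RPKM in oil and 3.12 RPKM in CCl4, a ratio of 2.36 and 0.88 on the log2 scale relative to the median gene, Tead3 was at 1.59 and 1.65 RPKM, and Tead4 was listed at 0 in both libraries. Vgll4, which competes with YAP for TEAD proteins, was at 9.35 and 13.8 RPKM, and Vgll3 was listed at 0. In the CCN family, Ccn4 was listed at 0 in oil and at 2.33 RPKM in CCl4, and Ccn3, Ccn5 and Ccn6 were listed at 0 in both libraries. In the TAM receptor family of Axl, Mertk, a receptor of macrophages, was at 22.1 RPKM in oil and 45.4 RPKM in CCl4, a ratio of 2.05 and 0.74 on the log2 scale relative to the median gene, and Tyro3 was listed at 0. Their ligands Gas6 (30.02 and 48.7 RPKM) and Pros1 (21.5 and 31.0 RPKM) had ratios of 1.62 and 1.44.

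Markers of other liver cells differed between the libraries too, and their counts stand beside 14.3% of all measured genes higher and 5.48% lower. The 8 hepatocyte markers were at 50.1 RPKM or more in both libraries and their summed level was 17255 RPKM in oil and 10260.4 RPKM in CCl4. Their median log2 difference was -1.25 and 5 of the 8 were lower by at least 2-fold, among them Cyp2e1 (645 and 128 RPKM) and Hnf4a (148.9 and 50.1 RPKM), while Alb, the largest part of the sum, was at 8656 and 6476 RPKM. Among the 10 stellate cell and myofibroblast markers, all 9 measured in both libraries were higher by at least 2-fold, with a median log2 difference of 3.40, and Pdgfrb was listed at 0 in oil and at 16.8 RPKM in CCl4. The 7 sinusoidal endothelial markers summed to 491 and 839 RPKM with a median log2 difference of 0.73, and 2 of the 7 were higher by at least 2-fold. The 6 Kupffer cell and macrophage markers had a median of 1.17, from Marco at 42.3 and 278 RPKM to Clec4f, the marker of resident Kupffer cells, at 283 and 255 RPKM. The cholangiocyte markers summed to 50.9 and 170.2 RPKM with a median log2 difference of 0.82. Most of that sum was Spp1, at 37.4 and 145.1 RPKM, while Krt19 was at 8.86 and 17.8 RPKM, and Sox9 and Cftr were listed at 0 in both libraries. Ccn1, Ccn2, Axl and Wwtr1 were thus higher in the library in which the median of each of the 4 lists of other liver cells was also higher, and the part of any of these cells in their levels was not tested. In bulk RNA, more cells of a type and more RNA per cell cannot be told apart.

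**Figure D4:**
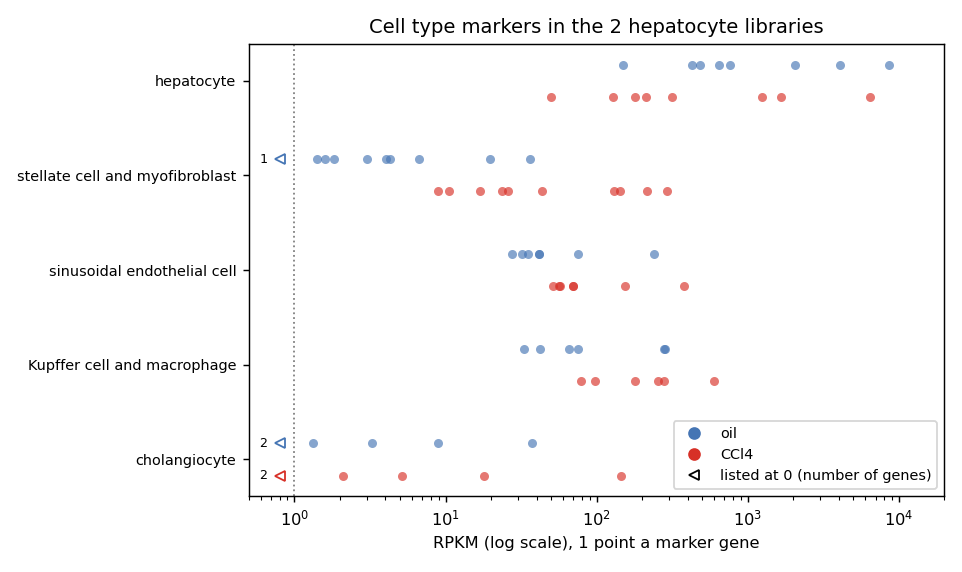
RPKM on a log axis of each marker gene, 1 point a gene, by cell type, blue for oil and red for CCl4, with triangles and a number for genes listed at 0. Among the stellate cell markers in oil, Pdgfrb is listed at 0 and the others lie between 1.41 and 36.1 RPKM. In CCl4 all of them lie between 8.92 and 290.1 RPKM, while the hepatocyte markers lie further left in CCl4.

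Of the annotated lncRNAs, 0 RefSeq transcripts belonged to any of the 9 genes. Of the 1443 lncRNAs that are absent from the annotation, 1 lay within 200 kb of a member, TCONS_00009449 at chr10:24509760-24511278 (mm10, plus strand), 84.2 kb from Ccn2. It had 9 reads with oil and 36 reads with CCl4.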

How the data were processed

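RNA-seq of 2 libraries was used as deposited. The authors deposited RPKM values per transcript for mRNAs, annotated lncRNAs and new lncRNAs, and listed values under 1 RPKM as 0: all 1354 oil and 1347 CCl4 values of new lncRNAs under 1 in a table without this floor were 0 in the other. For new lncRNAs the authors also deposited read counts and, as another column, transcript lengths. The submitters' processing notes name CASAVA 1.4, TopHat2 and mm10; counting program, annotation and strand setting are not given in the sources used here. The deposited log2 changes, p-values and q-values are the authors' own comparison and were not used.

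RefSeq identifiers were paired with symbols through GRCm38.p6 (27049 of 27457 mRNA rows). Each gene took the values of the transcript whose mean over the libraries was highest. Transcripts of a gene share reads, so their values are not independent. Genes at 1 RPKM or more in both libraries were compared as log2 with 0.1 RPKM added and counted at an absolute difference of at least 1. The measure across genes is a difference between 2 libraries, with no test. The library totals were those at which most genes shorter than 400 bases had whole reads, within 0.02 (213 of 225 for oil, 227 of 240 for CCl4). The 9 members and the lists were chosen with earlier results of these data known. Named genes were the members and, up to 10 a list by mean RPKM, listed genes at 5 RPKM or more or past 2-fold. Other named genes of the lists, Wwc1, Wwc2, Dchs1, Fat4 and Fat1 included, were added after their values were seen, as were the 200 kb window and the library totals. Cd68 had no matching transcript. Alternatives were the pseudocount, 2 scalings, the choice of transcript, the handling of listed zeros, a filter on low values and a stricter fold. The steps were checked on simulated data. Python 3.11.15, numpy 2.4.6, pandas 2.3.3, scipy 1.17.1 and matplotlib 3.10.9 were used.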

Additional observations from a re-analysis of the deposited data

Results flagged for a closer look

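The lncRNA TCONS_00009449, 84.2 kb from Ccn2, comes from a table that the comparisons of the 9 genes do not use. It is given here because the lower 95% bound of its CCl4 reads exceeded the upper bound of its oil reads, scaled for depth. It had 9 reads in oil (95% exact Poisson interval from 4.12 to 17.1) and 36 reads in CCl4 (25.2 to 49.8). The totals behind this table, about 62440000 reads in oil and 70960000 in CCl4, differ from those behind the mRNA table. Per length and these depths the ratio was 3.52, with an exact Clopper-Pearson interval from 1.66 to 8.31 that covers counting error only. That interval makes no allowance for the choice of this lncRNA by the same reads. At 0.0949 and 0.334 RPKM its level was far under that of Ccn2, and whether the pair is related was not tested.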

How the results depend on the processing

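No log2 difference of a member changed sign under any alternative run, and Ccn1, Ccn2 and Axl were past 2-fold under each scaling, pseudocount and choice of transcript run. The log2 difference of Wwtr1 was under 1 with 1 RPKM added (0.89), with the median gene scaling (0.71) and, by the 0.1 RPKM added to a ratio of 2.02, with its other transcript (0.997), so that 3 members were higher in each. Of 104 values under alternatives, 78 stayed within the counting interval or within 1.5 times the main count and 26 moved. Scaled to the median gene, the medians were 1.18 for targets and 0.46 for pathway members, 866 genes were higher and 1026 lower, and of the other listed genes 4 were higher and 1 lower. With the 10 most abundant transcripts left out of the library size, 2064 genes were higher and 430 lower, 15 of the other listed genes were higher in place of 10, and the medians were 1.64 for targets and 0.91 for pathway members. With 1 RPKM added, 6 of the other listed genes were higher in place of 10. With a mean of at least 5 RPKM, 6 of them and 951 of all genes were higher. At a log2 difference of at least 2, 0 members, 3 other listed genes and 188 of all genes were higher, and 75 of all genes lower, as a stricter rule gives by construction. Taking the transcript with the lowest mean, an alternative added after seeing the data, put the pathway median at 0.96 through the second Lats2 transcript. With each listed 0 set to 1 RPKM, the log2 difference of Tead1 was 0.54, a lower bound because its oil level was under 1 RPKM. Because values under 1 RPKM were listed as 0, no statement on Ankrd1 is possible beyond a level under 1 RPKM. Leaving out a library was not possible with 1 per group.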
